A study of Mus musculus with 12 samples.

Results

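Passage through G1, the phase before DNA is copied, is driven by cyclins D and E with their cyclin-dependent kinases (CDKs) and is restrained by CDK inhibitors. The transcripts of 10 genes of this system were followed: the D cyclins Ccnd1, Ccnd2 and Ccnd3, the E cyclins Ccne1 and Ccne2, the kinases Cdk4, Cdk6 and Cdk2, and the inhibitors Cdkn1b and Cdkn2c. They were taken by name, through every probe set that the array's annotation assigns to that gene alone. This gave 21 of the 22690 probe sets, and each of the 10 genes, of 12393 named genes on the array, had at least 1.

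The cells were mouse embryonic fibroblasts (MEFs), a primary culture of connective tissue cells explanted from embryos of day 13.5 and grown to passage 2. They formed 4 groups: wildtype untreated, Rb null untreated, wildtype with cisplatin and Rb null with cisplatin. Treated cells had 16 µM cisplatin, a platinum drug that crosslinks DNA, for 24 h. Each group was measured on 3 Affymetrix arrays, 12 in all. The series describes 4 RNA samples with 3 hybridizations each, and the number of embryos or cultures behind an RNA sample is not given in the sources used here. The p-values therefore measure only the spread between arrays, which may be technical.

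In G1, D cyclins bind CDK4 and CDK6 and start to phosphorylate the retinoblastoma protein, the product of Rb1. Cyclin E with CDK2 completes this, which frees E2F transcription factors to switch on genes of DNA replication as well as Ccne1 and Ccne2. The INK4 protein p18, encoded by Cdkn2c, blocks CDK4 and CDK6, while p27, encoded by Cdkn1b, blocks mainly cyclin E with CDK2.

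The labels were checked first. The single Rb1 probe set gave 419.9 to 487.5 on untreated and 344.4 to 452.1 on treated wildtype arrays, against 74.0 to 104.9 on the 6 Rb null arrays. Its position relative to the null allele is not given in the sources used here. All 11 fibroblast markers on the list used were measured above the filter on level, with summed signals of 44270 to 67390 per array. The untreated wildtype arrays stood apart in sex-linked transcripts. Xist, which coats and silences 1 X in female cells, was at 115.1 to 162.9 there. On the other 9 arrays it was at 2150.9 to 3760.9. The Y-linked Eif2s3y was at 469.7 to 485.4 on untreated wildtype arrays against 0.5 to 17.8 on the other 9. The treated groups were not equal in Xist, with 2150.9 to 2506.0 in wildtype and 3226.8 to 3760.9 in Rb null cells. A second Xist probe set gave 588.4 to 628.8 and 1129.0 to 1354.9 in these groups. Summed markers of other cell types ran, over all arrays, from 5762 to 12230 for macrophages (14 genes), from 356.7 to 1450 for epithelium (6), from 257.2 to 602.8 for endothelium (5), from 427.0 to 808.0 for striated muscle (6) and from 1316 to 4475 for neural cells (6). The macrophage sum was highest in treated wildtype, and the neural and muscle sums in untreated wildtype cells. Such sums rest mostly on the brightest genes. Gene by gene, 9 of 14 macrophage markers had their highest group mean in treated wildtype cells. In untreated wildtype cells 4 of 6 neural and 4 of 6 muscle markers did. Wherever the untreated wildtype group enters a comparison, genotype or cisplatin cannot be told apart from what else sets these arrays apart. The genotype comparison after cisplatin and the cisplatin comparison in Rb null cells do not use it. Ratios of 3' to 5' control probe sets, a measure of RNA integrity, ran from 0.759 to 0.881 for Gapdh and from 1.10 to 1.32 for beta-actin.

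Signals are the deposited MAS5 values on a linear scale, given for each of the 3 arrays of a group or as their range. Differences are log2 values of signal plus 10.4 with their standard error, so weak genes appear to change less than they did. A probe set passed when limma's adjusted p was under 0.05 and the difference at least 1.5-fold. Of the 21 probe sets 19 lay above the filter on level and were tested, which left 9 of the 10 genes; the Cdk6 probe set and the weaker of both Cdkn1b probe sets were not tested. Each gene is represented by its brightest probe set, leaving out those whose suffix marks possible cross-hybridization (for Cdk4 a brighter one was passed over for this reason), and levels of different probe sets are not compared with each other.

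**Figure D1:**
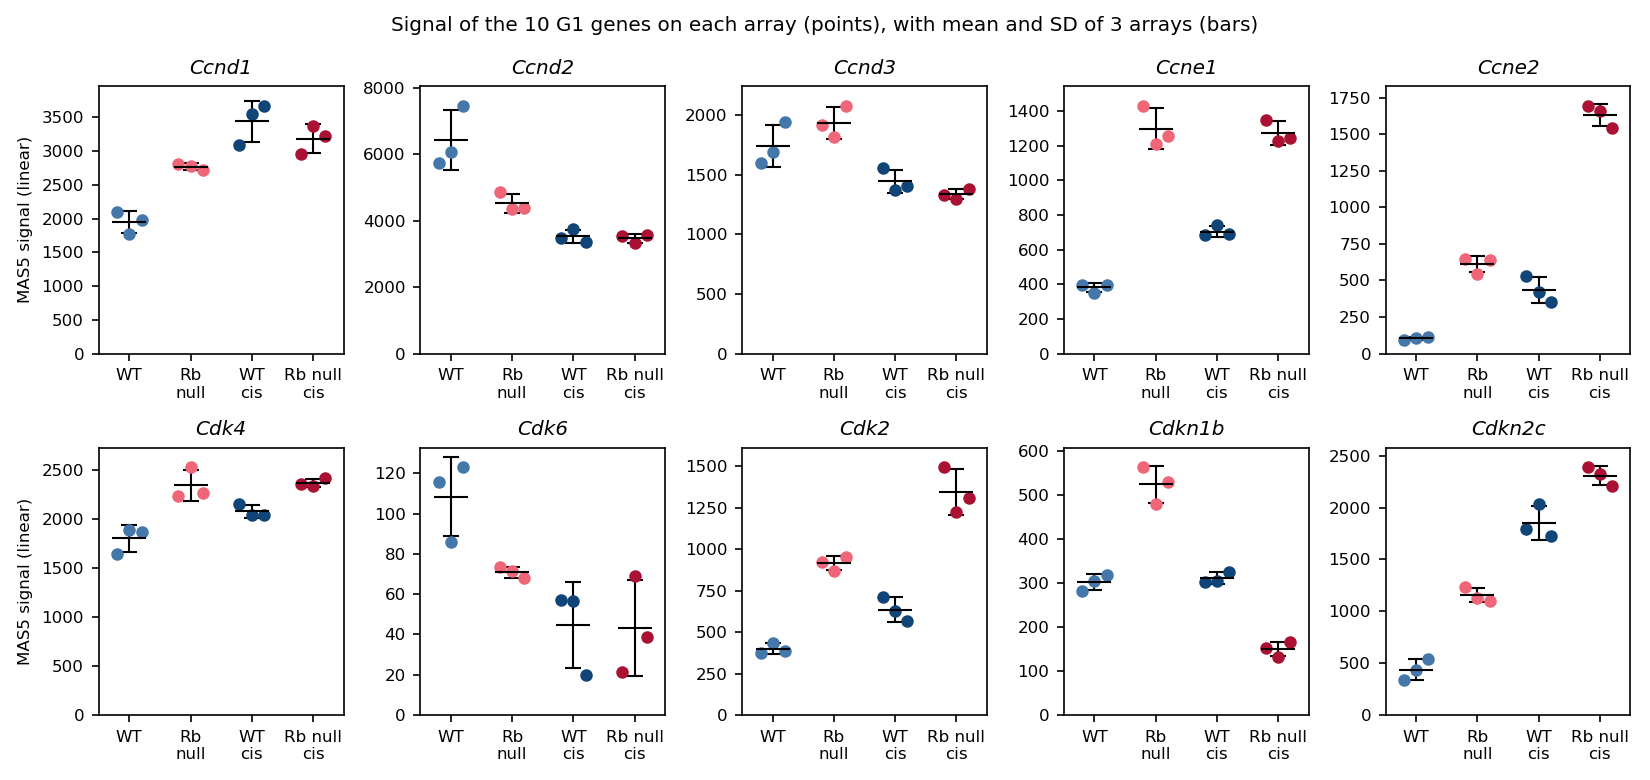
Signal of the 10 G1 genes on each array (vertical axis, linear MAS5 signal from 0; 1 panel per gene) in the 4 groups (WT, wildtype; cis, cisplatin), with 3 points per group and bars for mean and SD. Ccne1, Ccne2, Cdk2 and Cdkn2c were lowest on the untreated wildtype arrays, Ccnd2 was highest there, and Cdkn1b was highest in untreated and lowest in treated Rb null cells.

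The 3 D cyclins did not move together. Ccnd1, the main mitogen-induced D cyclin of fibroblasts, rose after cisplatin in wildtype cells and Ccnd2 fell. Ccnd3 was also lower after cisplatin, by less than 1.5-fold, and passed the test in none of the comparisons. Ccnd1 gave 2091.0, 1766.7 and 1980.3 on the untreated wildtype arrays and 2813.4, 2780.9 and 2717.3 on the untreated Rb null arrays. After cisplatin it gave 3088.9, 3556.3 and 3670.9 in wildtype and 2951.0, 3370.9 and 3227.1 in Rb null cells. The untreated wildtype arrays were below all others, and both treated groups overlapped. The rise in wildtype cells was 1.76-fold (log2 0.82 ± 0.08, adjusted p = 7.12e-07). In Rb null cells the change was log2 0.20 ± 0.08 (95% interval 0.03 to 0.37), below the 1.5-fold minimum.

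The changes of Ccnd1 after cisplatin differed between the genotypes by log2 -0.62 ± 0.11 (adjusted p = 0.000633). This call ended, through the fold minimum, with each array centred on its median (-0.52) and without any 1 of 3 arrays: Rb null cisplatin a (-0.57), wildtype cisplatin c (-0.57) or wildtype untreated 2 (-0.55). All 3 Ccnd1 probe sets rose in wildtype cells, by log2 0.82 to 1.38, and for all 3 the changes differed between the genotypes, by -1.13 to -0.62. Between the untreated genotypes 1 of the 3 passed as higher in Rb null cells, with differences of log2 0.51 to 0.60. They disagreed more on the genotypes after cisplatin, where Rb null minus wildtype ran from log2 -0.52 to -0.11. The probe set with the largest of these differences gave 2508.9 to 2776.3 in wildtype and 1716.2 to 1890.3 in Rb null cells without overlap, a 1.44-fold lower signal that is just under the minimum.

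Ccnd2, the D cyclin that several mitogen pathways and stem cells use, ran the other way. Its brightest probe set gave 5739.4, 6071.5 and 7450.0 on untreated wildtype arrays, and 4850.8, 4333.2 and 4387.9 on untreated Rb null arrays. With cisplatin the values were 3472.7, 3737.9 and 3362.9 in wildtype and 3539.1, 3318.2 and 3556.5 in Rb null cells. All untreated wildtype arrays were above all others, and both treated groups overlapped. The fall after cisplatin was 1.81-fold in wildtype cells (log2 -0.86 ± 0.08, adjusted p = 8.75e-07). In Rb null cells the change was log2 -0.38 ± 0.08, under the minimum.

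With 7 probe sets, Ccnd2 was the most densely measured member. Untreated Rb null cells were below untreated wildtype cells without overlap on all 7, by log2 -0.91 to -0.50, and 5 passed. The brightest was not among these 5, at log2 -0.50 ± 0.08 (adjusted p = 0.000393). After cisplatin, 6 of the 7 passed as lower in wildtype cells and 2 in Rb null cells. None of the 7 passed between the genotypes after cisplatin, where the differences were log2 -0.29 to -0.02. For 1 of them the difference was 1.22-fold with an adjusted p = 0.0174 by limma, and for the other 6 the unadjusted p was above 0.05. The cisplatin changes differed between the genotypes for 2 of the 7, and all 7 estimates lay above 0 (log2 0.42 to 0.86), that is, the estimated decline was smaller in Rb null cells.

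Ccnd3, the D cyclin most widely expressed in differentiated cells, gave 1596.2 to 1941.5 in untreated wildtype, 1816.2 to 2078.7 in untreated Rb null, 1372.5 to 1554.7 in treated wildtype and 1300.5 to 1384.8 in treated Rb null cells. Each treated group was below its untreated group without overlap, while the genotypes overlapped in both conditions. The cisplatin difference was log2 -0.27 ± 0.08 in wildtype and -0.53 ± 0.08 in Rb null cells (95% interval -0.70 to -0.35; adjusted p = 5.56e-05). Both were under 1.5-fold.

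**Figure D2:**
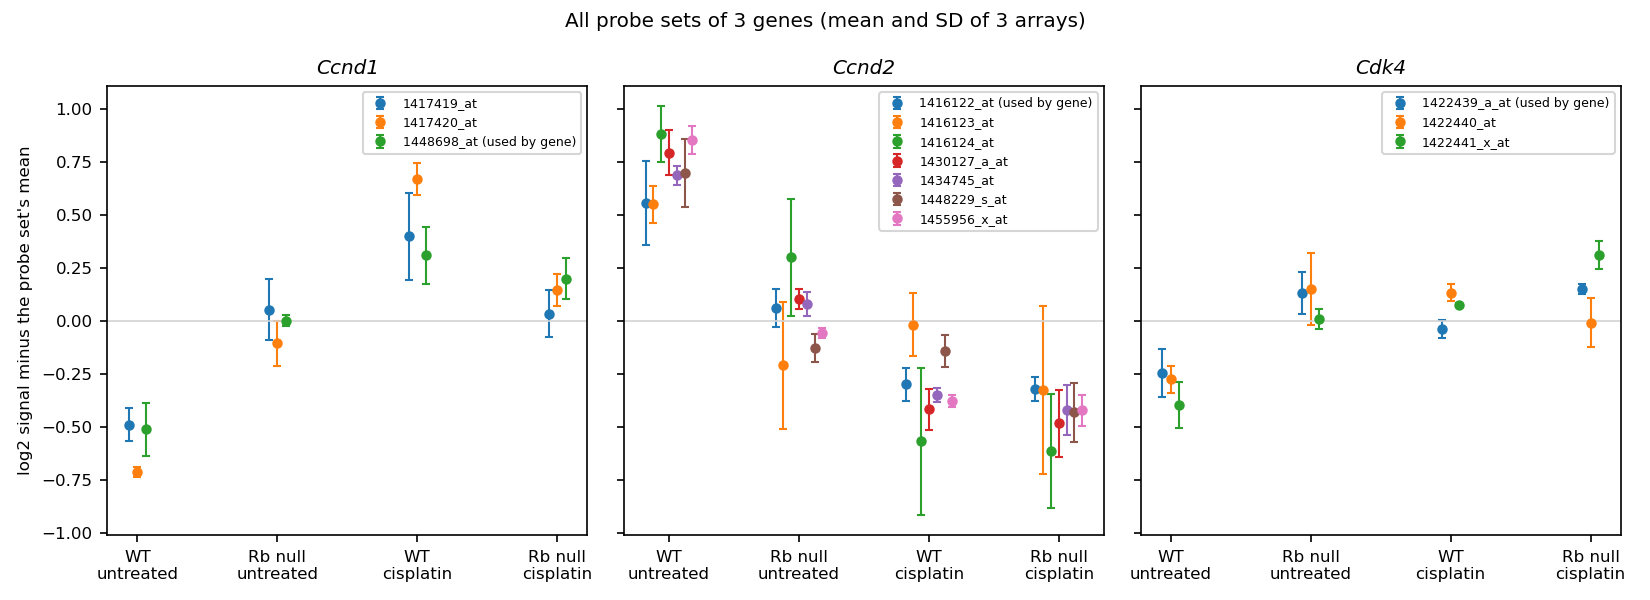
Log2 signal of every probe set of Ccnd1 (3), Ccnd2 (7) and Cdk4 (3), each minus its own mean over the 12 arrays (vertical axis), in the 4 groups (horizontal axis); points are means and bars SDs of 3 arrays, and probe sets are shifted sideways for clarity. All Ccnd1 probe sets are lowest and all Ccnd2 probe sets highest in untreated wildtype cells, and the 3 Cdk4 probe sets differ in their order among the other groups.

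Of the kinases that pair with D cyclins, Cdk4 passed the test in none of the comparisons and Cdk6 was too weak to enter it. Cdk4 gave 1645.2 to 1892.9 on untreated wildtype arrays and 2236.0 to 2528.4 on untreated Rb null arrays. With cisplatin it gave 2042.1 to 2153.3 in wildtype and 2339.1 to 2414.7 in Rb null cells. The Rb null arrays were above the wildtype arrays in both conditions, by log2 0.38 ± 0.07 untreated (adjusted p = 0.000718) and 0.19 ± 0.07 after cisplatin (adjusted p = 0.0346), and both differences were under the fold minimum. None of the 3 Cdk4 probe sets passed in any of the 5 comparisons. After cisplatin they did not share a direction between the genotypes, with log2 differences from -0.14 to 0.23.

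Cdk6, the other D cyclin partner, had a weak probe set. Without cisplatin its values were 115.9, 86.0 and 123.0 on wildtype and 73.5, 71.3 and 68.1 on Rb null arrays. With the drug they were 57.0, 56.7 and 20.1 on wildtype and 21.6, 69.1 and 38.9 on Rb null arrays. Both treated groups overlapped. Without the filter on level it was lower after cisplatin in wildtype cells by log2 -1.19 ± 0.35 (adjusted p = 0.0178), and it passed in no other comparison. The 95% interval of its genotype difference after cisplatin was log2 -0.81 to 0.72.

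The E cyclins and their kinase were higher in Rb null cells whether or not cisplatin was given. Ccne1 (cyclin E1) gave 397.0, 351.9 and 394.6 on untreated wildtype arrays and 1430.0, 1208.0 and 1254.4 on untreated Rb null arrays. After cisplatin it gave 682.5, 740.7 and 687.9 in wildtype and 1349.4, 1224.4 and 1246.2 in Rb null cells. The wildtype groups did not overlap with any other group, and both Rb null groups overlapped with each other. Rb null cells were thus 3.34-fold higher untreated (log2 1.74 ± 0.08, adjusted p = 1.19e-09) and 1.80-fold higher after cisplatin (0.85 ± 0.08, adjusted p = 1.66e-06). Wildtype cells with cisplatin were 1.82-fold above untreated ones (log2 0.87 ± 0.08, adjusted p = 6.76e-07). The estimate in Rb null cells was -0.02 ± 0.08 (95% interval -0.20 to 0.16). These changes differed by log2 -0.89 ± 0.12 (adjusted p = 4.85e-05).

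Ccne2 (cyclin E2) had the widest range of the 10 genes, with a highest group mean 15.8 times the lowest. The arrays gave 93.5, 103.1 and 114.0 in untreated wildtype and 528.2, 421.6 and 351.7 in treated wildtype cells. The Rb null arrays gave 647.1, 546.5 and 642.2 untreated and 1694.5, 1656.4 and 1545.6 with cisplatin. All 4 groups were separate. Unlike those of Ccne1, the transcripts rose with cisplatin in both genotypes, by log2 1.95 ± 0.13 in wildtype and 1.40 ± 0.13 in Rb null cells (adjusted p = 1.10e-08 and 2.42e-07). The difference between these changes was log2 -0.54 ± 0.18 (adjusted p = 0.0292), under the fold minimum. It passed with a pseudocount of 1 (-0.62) and without Rb null untreated 2 (-0.62), wildtype cisplatin c (-0.68) or wildtype untreated 3 (-0.61).

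Cdk2, the kinase of both E cyclins, had values of 372.6, 436.5 and 388.1 on untreated wildtype arrays and 924.3, 869.6 and 953.0 on untreated Rb null arrays. With cisplatin they were 712.5, 628.6 and 565.2 in wildtype and 1494.9, 1224.6 and 1312.1 in Rb null cells, so all 4 groups were separate here too. The genotype difference was log2 1.18 ± 0.10 untreated and 1.07 ± 0.10 after cisplatin (adjusted p = 4.75e-07 and 9.66e-07). The cisplatin changes were 0.65 ± 0.10 in wildtype and 0.54 ± 0.10 in Rb null cells. Only the first passed at 1.5-fold, and it did not without wildtype cisplatin a (0.57); the second passed with median centring (0.69) and without Rb null cisplatin b (0.61). The changes differed by log2 -0.11, with a 95% interval of -0.42 to 0.20.

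The promoter windows of Cdk2 and Ccne1 are shown because both genes were higher in Rb null cells in both conditions and an E2F site is the best known link from the retinoblastoma protein to a promoter. Windows run from 250 bases before to 50 after an annotated start, from RefSeq on build GRCm38.p6, and 9 windows matched 7 of the 10 genes. Ccnd3 and Cdkn2c had 2 windows each, and the Cdk6 window and 1 each of Ccnd3 and Cdkn2c lie inside the annotated gene rather than at its outer end. Capitals mark any of the E2F letters TTTCCCGC, TTTGGCGC, TTTCGCGC or TTTGCCGC on either strand. Cdk2 lies on the minus strand at chr10:128705002-128705301, and Ccne1 on the minus strand at chr7:38107441-38107740.
Cdk2: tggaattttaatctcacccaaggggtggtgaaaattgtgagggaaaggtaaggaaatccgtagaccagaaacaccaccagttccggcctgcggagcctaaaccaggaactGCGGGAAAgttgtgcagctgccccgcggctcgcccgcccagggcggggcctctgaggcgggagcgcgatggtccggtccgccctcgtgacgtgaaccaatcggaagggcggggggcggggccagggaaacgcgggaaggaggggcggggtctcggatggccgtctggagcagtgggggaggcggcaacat
Ccne1: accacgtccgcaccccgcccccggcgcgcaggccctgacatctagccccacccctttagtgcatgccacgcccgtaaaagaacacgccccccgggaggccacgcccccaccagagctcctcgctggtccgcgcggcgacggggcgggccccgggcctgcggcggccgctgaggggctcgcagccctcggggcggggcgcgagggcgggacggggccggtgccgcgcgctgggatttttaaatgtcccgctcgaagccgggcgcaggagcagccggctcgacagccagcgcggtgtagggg
The Cdk2 window held 1 such run, TTTCCCGC read on the opposite strand, which begins 140 bases before the annotated start. The windows of the other 6 matched genes (Ccnd3, Ccne1, Cdk4, Cdk6, Cdkn1b and Cdkn2c) held none of these letters. Of all 32851 windows of this length, 2.26% held at least 1. A match describes the sequence and is no evidence that E2F was bound. The search took these exact letters in these windows alone, so a window without a match does not show that the gene lacks an E2F site.

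The 2 inhibitors differed in their response. Cdkn2c (p18) rose with cisplatin in both genotypes, whereas Cdkn1b (p27) fell in Rb null cells, and for both genes the changes differed between the genotypes. Cdkn2c gave 340.1, 435.9 and 536.2 in untreated wildtype and 1794.1, 2038.6 and 1727.5 in treated wildtype cells. The Rb null arrays gave 1229.3, 1128.6 and 1103.4 untreated and 2387.8, 2327.9 and 2207.9 with cisplatin. All 4 groups were separate, and the untreated wildtype arrays were lowest. The rise was 4.22-fold in wildtype (log2 2.08 ± 0.12, adjusted p = 3.71e-09) and 1.99-fold in Rb null cells (0.99 ± 0.12, adjusted p = 6.03e-06), and these differed by log2 -1.08 ± 0.18 (adjusted p = 0.00026). Rb null cells were higher by log2 1.40 ± 0.12 untreated (adjusted p = 6.92e-07). After cisplatin they were at 0.32 ± 0.12 (adjusted p = 0.0445), under the fold minimum.

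Cdkn1b was the only one of the 9 tested members whose genotype difference passed in opposite directions in the 2 conditions. Its brighter probe set gave 282.3, 305.0 and 318.9 in untreated wildtype and 303.1, 305.8 and 326.3 in treated wildtype cells, which overlapped. The Rb null arrays gave 563.4, 480.0 and 529.9 untreated and 152.8, 132.6 and 165.6 with cisplatin. These Rb null groups lay above and below all 6 wildtype arrays. Rb null cells were 1.71-fold higher untreated (log2 0.77 ± 0.11, adjusted p = 5.06e-05) and 2.01-fold lower after cisplatin (-1.01 ± 0.11, adjusted p = 2.62e-06). The fall with cisplatin in Rb null cells was 3.33-fold (log2 -1.74 ± 0.11, adjusted p = 2.81e-09), against 0.04 ± 0.11 in wildtype cells (95% interval -0.18 to 0.27). The difference between these changes was the largest in size among the 9 tested genes, log2 -1.78 ± 0.15 (adjusted p = 6.12e-07).

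The pattern of Cdkn1b rests on 1 probe set. The second was weak in every group (16.0 to 37.4). Without the filter on level its difference between cisplatin changes was log2 -0.23, with a 95% interval of -0.87 to 0.41. As for Cdkn1b, the cisplatin change was lower in Rb null than in wildtype cells for 8 of 11 fibroblast markers and higher for 0. Their summed signal was 44270 to 44970 in treated Rb null cells against 57300 to 67390 elsewhere. In untreated Rb null cells 2 of the 11 passed as higher, like Cdkn1b, and 0 as lower. In wildtype cells, where Cdkn1b did not pass, 4 rose and 4 fell with cisplatin. The cisplatin change was also lower in Rb null cells for 10 of 13 macrophage markers. It was lower for 17 of 22 proliferation transcripts (S phase, G2 and mitosis), with 0 higher on either list. The part of these lists in the result was not tested.

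**Figure D3:**
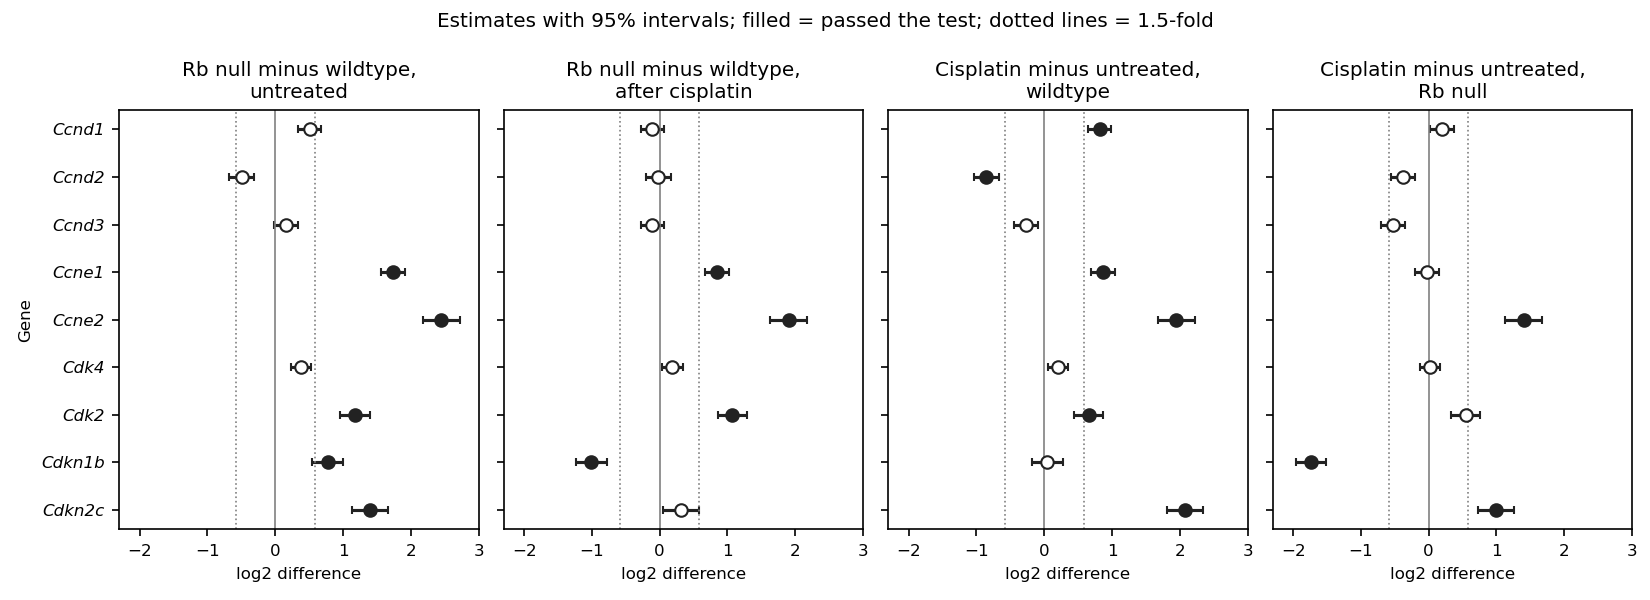
Log2 difference (horizontal axis) with its 95% interval for each of the 9 tested genes (vertical axis) in 4 comparisons; filled points passed the test and dotted lines mark 1.5-fold. Ccne1, Ccne2 and Cdk2 are to the right of 0 in both genotype panels, and Cdkn1b changes side between them.

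Set side by side, the comparisons differed in how many members passed. In untreated cells 11 of the 19 probe sets differed between the genotypes, 6 higher in Rb null cells and 5 lower, the latter all of Ccnd2 (whose brightest probe set did not pass); of all 13576 probe sets tested 12.4% passed, 7.68% higher and 4.68% lower. By gene, 5 of 9 were higher (Ccne1, Ccne2, Cdk2, Cdkn1b and Cdkn2c) and 0 lower, against 8.07% and 5.08% of 7945 genes. The median log2 difference of the 9 was 0.77, and that of all genes tested -0.0093. Beside them, 22 of 22 tested genes on a list of proliferation transcripts (S phase, G2 and mitosis) were higher in untreated Rb null cells. The summed signal of the 24 measured genes on this list was 15330 to 15870 on untreated wildtype and 47570 to 48630 on untreated Rb null arrays. In such bulk samples fewer cycling cells and less RNA per cell cannot be told apart.

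After cisplatin 4 of the 19 probe sets differed between the genotypes, 3 higher in Rb null cells (Ccne1, Ccne2, Cdk2) and 1 lower (Cdkn1b). Of all probe sets 22.1% passed, 9.21% higher and 12.9% lower, so the members' count by probe set was near the background. By gene this was 3 of 9 higher and 1 lower, against 9.67% higher and 13.3% lower of all genes (23.0% in all). The 9 genes had a median of log2 0.19, against -0.05 for all genes. The same 4 passed when the untreated wildtype arrays were left out of the fit. Here 15 of the 22 tested proliferation transcripts were higher and 0 lower, with sums over the 24 measured genes of 34490 to 35220 in wildtype and 59280 to 60650 in Rb null cells. Of the other lists, 7 of 11 fibroblast and 10 of 13 macrophage markers were lower in Rb null cells and 0 higher. The part of these lists in the members' differences was not tested.

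Between treated and untreated wildtype cells 13 of the 19 probe sets differed, 7 upward and 6 downward with cisplatin, the 6 again all of Ccnd2. Over all probe sets 26.7% passed, 13.5% upward and 13.2% downward. By gene 27.5% of all passed. Of the 9, 5 rose (Ccnd1, Ccne1, Ccne2, Cdk2 and Cdkn2c; 14.8% of all genes) and 1 fell (Ccnd2; 12.7%). Proliferation transcripts were higher in the treated arrays for 20 of 22. This comparison shares its untreated wildtype arrays with the untreated genotype comparison, and 6 of the 10 members had their lowest group mean on these arrays, as did 24 of 24 proliferation transcripts.

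Between treated and untreated Rb null cells 5 of the 19 probe sets differed, 2 upward (Ccne2, Cdkn2c) and 3 downward (2 of Ccnd2 and Cdkn1b). The share among all probe sets was larger, 36.7%, with 15.8% upward and 20.9% downward. With each array centred on its median, which moved the median probe set by log2 0.15, 3 of the 19 probe sets were higher and 2 lower (by gene 3 and 1), and the upward share of all calls went from 43.0% to 56.3%. By gene 2 of 9 rose and 1 fell, against 16.6% and 20.3% of all genes (36.9% in all). The median of the 9 was log2 0.02, and that of all genes -0.02. Proliferation transcripts went both ways, 6 higher and 7 lower of 22.

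The cisplatin changes differed between the genotypes for 8 of the 19 probe sets, 2 higher in Rb null cells (both of Ccnd2) and 6 lower, namely 3 of Ccnd1 and those of Ccne1, Cdkn1b and Cdkn2c. Among all probe sets 23.1% passed, 8.64% higher and 14.4% lower. By gene 4 of 9 were lower and 0 higher, where 15.0% and 8.70% of all genes were, with a median of log2 -0.54 beside -0.07 for all genes. Median centring made this 4 higher and 5 lower for the probe sets and moved the median of all probe sets by log2 0.10; the higher share of all calls went from 37.5% to 51.6%. Of the proliferation list 17 of 22 were lower here.

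**Figure D4:**
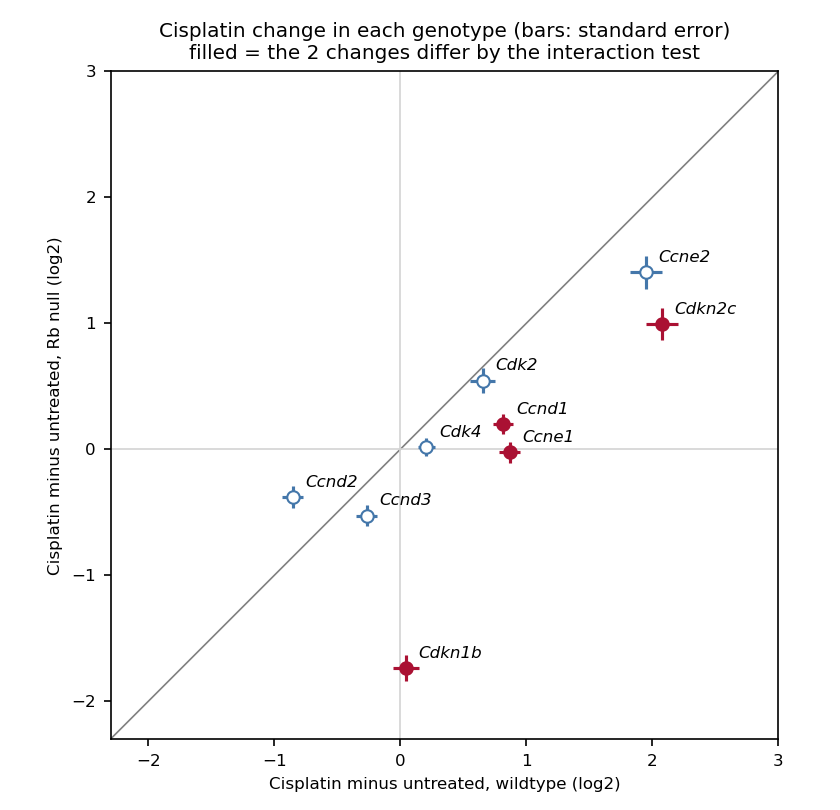
Cisplatin minus untreated in wildtype (horizontal axis) and in Rb null cells (vertical axis), log2, for the 9 tested genes with standard errors; the diagonal marks equal changes and filled points passed the test of the difference. Cdkn1b lies at 0.04 and -1.74, and Ccne1, Ccnd1 and Cdkn2c lie below the diagonal.

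Separation of arrays was common in these data and is a weaker criterion. Between the untreated genotypes 18 of the 19 member probe sets did not overlap, where 46.1% of all probe sets did not. The counts were 10 of 19 between the treated genotypes (59.0% of all), 18 of 19 for cisplatin in wildtype (60.5%) and 14 of 19 for cisplatin in Rb null cells (68.9%).

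Other genes of the G1 to S pathway were taken from a list of 38, of which 31 had a tested probe set. In untreated Rb null cells 10 of the 31 were higher and 2 lower, where 13.2% of all genes passed. The S phase cyclin gene Ccna2 was at log2 2.01 ± 0.07, its mitotic kinase partner Cdk1 at 1.88 ± 0.06 and Rbl1, which encodes the Rb relative p107, at 1.88 ± 0.12. Rb1 itself was at -2.17 ± 0.15. After cisplatin 9 of the 31 were higher and 6 lower between the genotypes, where 23.0% of all genes passed. Fbxw7, the ubiquitin ligase subunit that marks cyclin E for breakdown, was at 1.15 ± 0.10 and the repressor gene E2f8 at 1.06 ± 0.12. Fbxo31, a ligase subunit linked to cyclin D1 breakdown, was at -1.23 ± 0.27, and Rb1 at -1.97 ± 0.15. Fbxo31 gave 96.1, 30.8 and 93.6 on the treated Rb null arrays, and without the lowest of them, array b, its difference was -0.78.

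With cisplatin in wildtype cells 8 of the 31 rose and 2 fell, near the 27.5% of all genes that passed. Cdkn1c, which encodes the CDK inhibitor p57 of the same family as p27, fell by 2.23 ± 0.15 on the log2 scale. E2f8 rose by 1.98 ± 0.12, Ccna2 by 1.35 ± 0.07 and Cdk1 by 1.12 ± 0.06. In Rb null cells 5 rose and 6 fell, near the 36.9% of all genes that passed, and with median centring 9 and 6. Fbxw7 rose by 2.19 ± 0.10 and E2f8 by 1.19 ± 0.12, while Fbxo31 fell by 1.59 ± 0.27 and Mnat1, a subunit of the CDK-activating kinase, by 1.28 ± 0.11. The changes differed between the genotypes for 17 of the 31, with 4 higher and 13 lower in Rb null cells, where 23.7% of all genes passed; with median centring, and likewise with quantile normalization, this was 4 and 9. Cdk1 (log2 -1.64 ± 0.08) and Ccna2 (-1.37 ± 0.09) were lower, as was Fbxo31 (-1.23 ± 0.39; -0.78 without Rb null cisplatin b), and Fbxw7 was higher (1.26 ± 0.14).

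Members were also set against each other and against all other tested genes by how alike their profiles were, as the root mean square (RMS) difference of log2 signal over the 12 arrays after each gene was centred. This is a description, since the 12 arrays hold 4 groups. The nearest pairs of members were Ccne1 with Cdk2 (RMS 0.26, r = 0.931) and Ccnd1 with Cdk4 (0.26, r = 0.592). Outside the members, Ccne1 was nearest to Rad51ap1, a gene of homologous recombination, and Plk4, the kinase that starts centriole duplication (RMS 0.12 and 0.13). Cdk2 was nearest to Paxip1, a DNA damage response gene, and Chek1, the replication checkpoint kinase (0.11 each). Ccne2 had no neighbour as close by RMS, which grows with the size of the changes, with Fam111a at 0.29 and Slc43a3 at 0.32. Their correlations with Ccne2 (r = 0.986 and 0.983) were near those of the Ccne1 neighbours (0.987 each).

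The D cyclins and inhibitors had other neighbours. Ccnd2 was nearest to Rcn1, which encodes a calcium-binding protein of the endoplasmic reticulum, and to Tns1, which encodes the focal adhesion protein tensin (RMS 0.07 and 0.11). For Ccnd1 they were Rcc2 and Nr2c2ap (0.11 and 0.12). For Cdkn1b they were the collagen gene Col6a2 and the mesenchymal transcription factor gene Prrx1 (0.13 and 0.18). The wildtype means of Col6a2 were 1593 untreated and 1760 with cisplatin, and its Rb null means were 2639 and 722. Cdkn2c was nearest to Klf4, a transcription factor gene, and to Cdo1, which encodes cysteine dioxygenase (0.205 and 0.222).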

How the data were processed

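The authors deposited 1 signal intensity per probe set and array, made with MAS5 per the submitters' processing notes; its version, target and detection calls are not given in the sources used here. Values are linear, and each array's mean after trimming 2% at each end was 500.1 or 500.2. After adding 10.4 (their 10th percentile) they were converted to log2. Left out were 64 control probe sets and, of the rest, the 40% with the lowest mean. The other 13576 were fitted with 1 mean per group over all 12 arrays in limma 3.58.1 (R 4.3.3; lmFit, eBayes with trend, two-sided, Benjamini-Hochberg over all 13576). The untreated genotype comparison was also run on simulated data with known changes. There 44.2% of the 1.5-fold, 88.1% of the 2-fold and 99.7% of the 4-fold changes passed. Current gene symbols came from the platform annotation through Entrez IDs. By gene, the probe set with the highest mean was used, and suffixes of cross-hybridizing probe sets (such as _x_at) only without another. Members, lists and tests were chosen with earlier results of these data known. Named pathway genes are, per comparison, all that passed if 5 or fewer and otherwise the 4 with the largest change; like genes are the 2 nearest to each member that passed, without provisional symbols. The fits were repeated with other pseudocounts, filters, scalings, fold minimums, group choices, a replicate block and each array left out. No depth applies to arrays; their number limits precision.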

Additional observations from a re-analysis of the deposited data

Results flagged for a closer look

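In 8 genes named here the change after cisplatin differed between Rb null and wildtype cells by the test of the difference itself. This was limma's interaction contrast, with adjusted p under 0.05 and at least 1.5-fold. The 8 are all 4 members that passed, of 9 tested, and the 4 largest changes on the pathway list. Of the 31 tested pathway genes 4 were higher and 13 lower, and of all genes tested 23.7% passed. The members among the 8 were Cdkn1b (log2 -1.78), Cdkn2c (-1.08), Ccne1 (-0.89) and Ccnd1 (-0.62). The Ccnd1 call was lost with median centring (-0.52). It was also lost without Rb null cisplatin a (-0.57), wildtype cisplatin c (-0.57) or wildtype untreated 2 (-0.55). The pathway genes among the 8, named by rule, were Cdk1 (-1.64), Ccna2 (-1.37), Fbxo31 (-1.23) and Fbxw7 (1.26). Without Rb null cisplatin b, whose signal was the lowest, the Fbxo31 value was -0.78. Negative values mean a lower change in Rb null cells. Each of these differences uses the untreated wildtype arrays, whose sex-linked transcripts differ from those of the other groups.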

How the results depend on the processing

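With calls at any fold, 18 member probe sets passed between the untreated genotypes, 10 between the treated genotypes, 14 for cisplatin in Rb null cells and 13 for the difference of changes; at 2-fold there were 4 between the untreated genotypes, 7 for cisplatin in wildtype cells, 2 for cisplatin in Rb null cells and 3 for the difference of changes. Under every other alternative run (pseudocount, filter, scaling, variance trend, groups in the fit, single arrays left out), each of the 5 counts stayed within 1.5 times its value. Among values of single member genes under an alternative, 1032 kept their side of the threshold, 15 lost and 29 gained a call, and 0 called values changed sign. All 450 values of the named pathway genes under these alternatives, a check chosen after seeing the data, kept theirs. These genes were named for having the largest changes, so this says little about the rest of the list. Over all 31 tested pathway genes, median centring took the lower calls for the difference of changes from 13 to 9. It took the rises with cisplatin in Rb null cells from 5 to 9. With the replicate block the counts were 11, 4 and 8 for the genotype comparisons and the difference of changes, as without it. The labels do not say whether same-numbered arrays belong together. Deviations from the group means correlated at -0.19 to 0.11 between same-numbered arrays of both genotypes (6 pairs), and at -0.21 to 0.30 between other pairs. Such few pairs, which are not independent of each other, cannot decide whether the numbers mark a shared batch. Treated and untreated arrays share no numbers. Weak probe sets (Cdk6 and 1 of Cdkn1b) limit what can be said of those genes.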
